A study of Mus musculus with 7 samples.

Results

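The genes described here are 38 genes of the actin cytoskeleton, the contractile apparatus and cell adhesion, with serum response factor (Srf) among them, out of 52459 gene names in the count table. They were taken by gene name: smooth muscle contractile genes, cytoplasmic actins and non-muscle myosin, tropomyosins, calponin and transgelin relatives, actin crosslinkers and focal adhesion genes, LIM and PDZ-LIM genes, and Srf with Ankrd1. Of the 38, 36 had enough counts to be tested, among 13367 tested genes in all. RNA was sequenced in bulk from primary mouse articular chondrocytes of the femoral head, grown in medium with serum and treated for 24 h. The groups were TGFβ1 at 5 ng/ml (2 libraries, replicates 1 and 3), BMP2 at 100 ng/ml (3 libraries, replicates 1 to 3) and vehicle (2 libraries, replicates 1 and 2). TGFβ1 and BMP2 are ligands of one family that signal mainly through SMAD2/3 and SMAD1/5. The sources used here do not give the strain, sex or age of the mice, or say whether serum was present during treatment. Nor do they say whether replicates were separate animals, separate cultures or repeated libraries, so the p-values measure only the spread between these libraries, which may be technical.

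Actin filaments are built from actin monomers, coated by tropomyosin, crosslinked by α-actinin and filamin, pulled by myosin and anchored at focal adhesions through talin, vinculin, zyxin and paxillin. Monomeric actin holds the myocardin-related transcription factors (MRTFs) in the cytoplasm. When monomers are taken up into filaments, MRTFs enter the nucleus and, with SRF, activate genes that carry a CArG box, many of which encode parts of the same filaments. In cultured chondrocytes, spreading and actin stress fibres are known to go with loss of cartilage gene expression.

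The total count was 18047765 and 16271793 in the TGFβ1 libraries, between 6747997 and 10686885 in the BMP2 libraries, and 6885056 and 7387051 in the vehicle libraries. The TGFβ1 libraries stood apart in composition: ribosomal protein genes held 6.16% and 6.12% of their counts, against 1.03% to 1.35% with BMP2 and 1.01% and 1.07% with vehicle. The log2 fold change of TGFβ1 against vehicle also moved with transcript length, from a median of 2.87 over 670 genes of at most 750 nt to −0.57 over 1020 genes above 7000 nt. The treatment and this difference between libraries cannot be told apart. Each comparison with TGFβ1 was therefore also run in a fit corrected for transcript length and GC content, called the length offset. Its values are printed for part of the genes only, and other values are from the fit without it. Col2a1, which encodes the main cartilage collagen, stood at 29570 ± 3713 CPM with TGFβ1, 30950 ± 3068 with BMP2 and 35500 ± 480 with vehicle (SD, n = 2, 3 and 2); CPM are counts scaled to the effective library size. Of 9 tested chondrocyte markers, TGFβ1 lowered 7, among them Sox9 and Acan, and raised 0, and BMP2 raised 1 and lowered 1. Over all tested genes TGFβ1 lowered 25.8% and raised 30.4%, and BMP2 raised 5.33% and lowered 6.15%.

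Genes are called higher or lower, or said to have risen or fallen, where the adjusted p in edgeR's quasi-likelihood test was under 0.05 over all tested genes. With TGFβ1 against vehicle, 18 of the 36 tested members were higher, 5 were lower and 13 were not called. Over all tested genes 30.4% were higher and 25.8% lower. The median log2 fold change was 0.55 over the members and −0.02 over all genes. With the length offset 18 members were higher and 4 lower, beside 25.3% and 23.6% of all genes, and the medians were 0.46 and −0.03. Most tested genes were called in one direction or the other in this comparison, so the members' counts are to be read against those shares.

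BMP2 moved fewer of these genes, and mostly down. Against vehicle 1 member (Actn4) was higher, 8 were lower (Fhl2, Mylk, Cnn2, Tpm2, Tpm1, Fhl1, Cald1 and Tagln2) and 27 were not called, beside 5.33% higher and 6.15% lower over all genes. The median over the members was −0.25 and that over all genes 0. With the length offset 1 member was higher and 8 lower, beside 6.77% and 6.28% of all genes, and the members' median was −0.18. Without vehicle replicate 1 the count of lower members was 5, and Actn4 was no longer called without BMP2 replicate 2 or 3 or without either vehicle library.

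The ligands were also compared directly. With BMP2 against TGFβ1, 4 members were higher (Mylk, Fhl1, Cnn3 and Myh10) and 23 were lower, beside 28.1% and 33.3% over all genes, with medians of −0.86 over the members and −0.02 over all genes. With the length offset the counts were again 4 and 23, beside 27.4% and 28.3%, and the members' median was −0.67. Csrp1 was then called higher and Vcl lower, and Myh10 and Actn4 were no longer called. The comparisons of TGFβ1 and of BMP2 with vehicle share both vehicle libraries, so they are not independent of each other. In bulk RNA, fewer cells that express a gene and less of its RNA in each cell cannot be told apart.

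**Figure D1:**
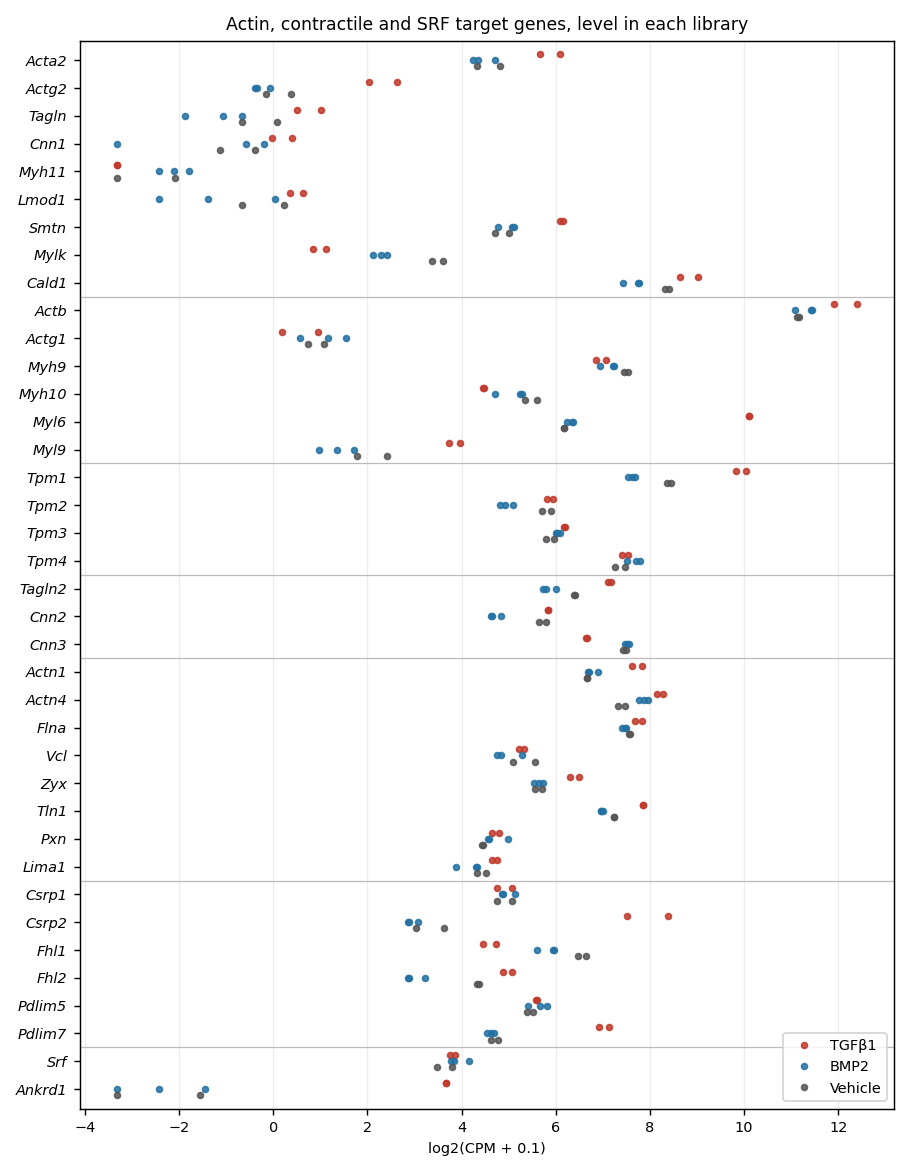
Level of each of the 38 genes in each library, as log2 of CPM plus 0.1 (x axis); points are libraries, colours are the treatments and grey lines separate the functional groups. Ankrd1, Csrp2, Pdlim7 and Tpm1 have their TGFβ1 points far to the right of the other 5 libraries, and Myh11 and Cnn1 sit near the left edge in every library.

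**Figure D2:**
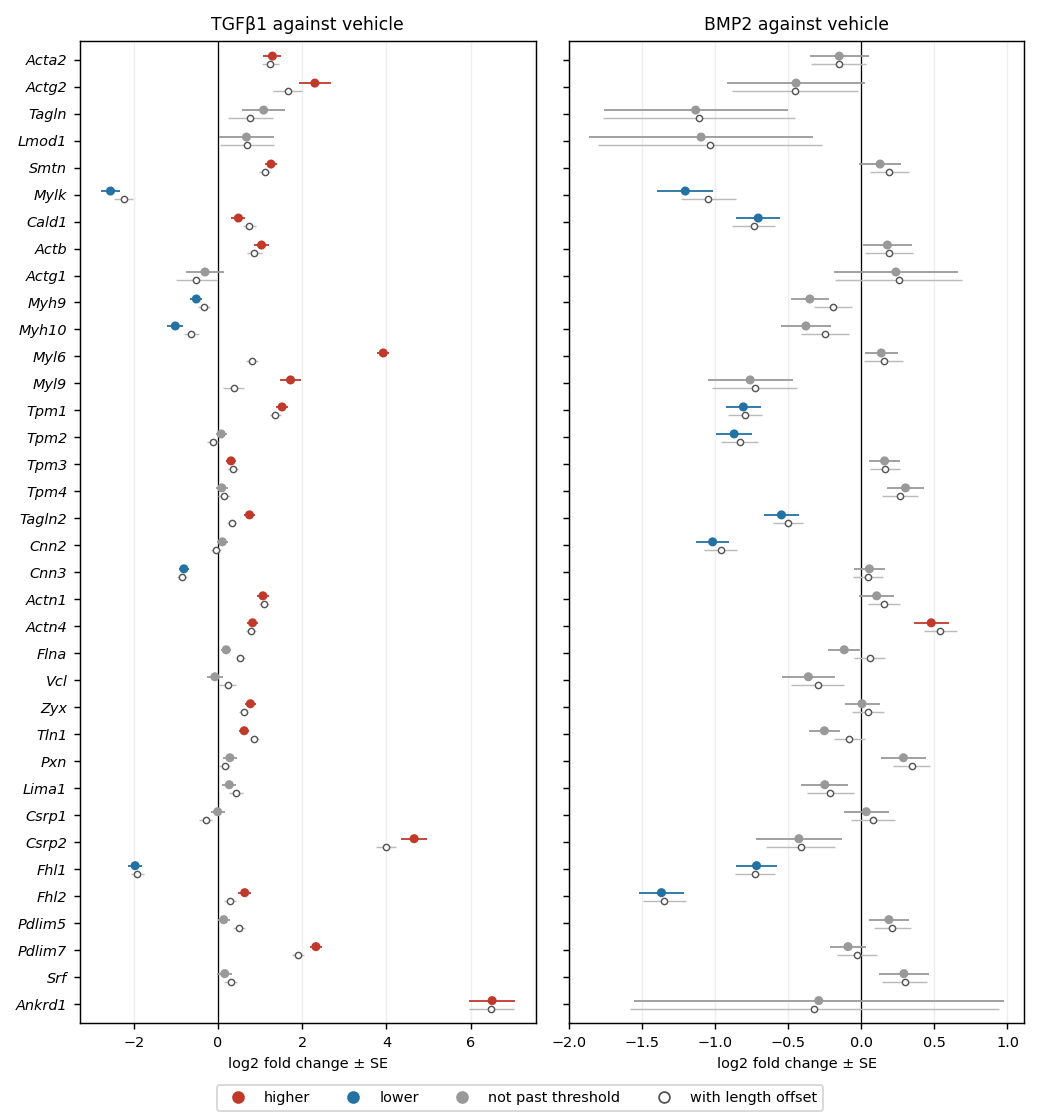
Log2 fold change against vehicle of the 36 tested genes for TGFβ1 (left) and BMP2 (right), with bars of 1 SE; filled points are the edgeR fit, coloured by call, and open points the fit with the length offset. The open and filled points of Myl6 and Myl9 lie far apart for TGFβ1, and the scales of the panels differ.

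Of the 9 smooth muscle contractile genes, 7 were tested. TGFβ1 raised 4 (Acta2, Actg2, Smtn and Cald1) and lowered Mylk, with or without the length offset. BMP2 lowered Mylk and Cald1 and raised 0 (0 also at an unadjusted p under 0.05 and in DESeq2). Without the offset TGFβ1 raised 30.4% and lowered 25.8% of all genes (25.3% and 23.6% with it), and BMP2 raised 5.33% and lowered 6.15%. Acta2, the α-smooth muscle actin that marks myofibroblasts (chromosome 19, 34241090 to 34255590, GRCm38), stood at 68.1 and 50.4 CPM with TGFβ1, 26.1, 20.3 and 18.8 CPM with BMP2 and 20.1 and 28.2 CPM with vehicle. Both TGFβ1 libraries were above every other library, while the BMP2 and vehicle libraries overlapped. The log2 fold change of Acta2 was 1.29 (SE 0.21, adjusted p = 0.000478) for TGFβ1 and −0.15 (SE 0.20, adjusted p = 0.698) for BMP2 against vehicle, and −1.44 (SE 0.19) for BMP2 against TGFβ1. With the length offset the TGFβ1 value was 1.24.

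Actg2, the γ actin of visceral smooth muscle, was far less abundant, with 82 and 52 counts in the TGFβ1 libraries, 5 to 9 with BMP2 and 6 and 10 with vehicle. Its log2 fold change with TGFβ1 was 2.30 (SE 0.37), and 1.65 with the length offset. Smtn, which encodes the filament-binding protein smoothelin, stood at 67.8 and 71.3 CPM with TGFβ1, 27.2 to 34.5 CPM with BMP2 and 26.2 and 31.9 CPM with vehicle. It was 2.39 times as high with TGFβ1 as with vehicle (log2 1.26, SE 0.15, adjusted p = 5.25e-05). Of the counted transcript of Smtn, 16.3% of exon bases overlap other genes on the opposite strand, whose reads cannot be told apart without strand.

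Caldesmon (Cald1), an actin-binding inhibitor of myosin ATPase, was called in opposite directions with the 2 ligands. Its level was 522 and 398 CPM with TGFβ1, 173, 218 and 215 CPM with BMP2, and 321 and 337 CPM with vehicle. The 3 groups did not overlap, with TGFβ1 highest and BMP2 lowest. On the log2 scale Cald1 rose by 0.48 with TGFβ1 (SE 0.17, adjusted p = 0.0302), and by 0.75 with the length offset (adjusted p = 0.00296). With BMP2 it fell by 0.70 (SE 0.15, adjusted p = 0.0133). Without TGFβ1 replicate 1 the rise was 0.28 (adjusted p = 0.199), and the calls of both ligands were lost without either vehicle library; BMP2 against TGFβ1 gave −1.19 (SE 0.15).

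Mylk, the kinase that phosphorylates the myosin regulatory light chain, went the other way from the genes around it. It stood at 1.69 and 2.06 CPM with TGFβ1, 4.80, 4.24 and 5.27 CPM with BMP2, and 12.0 and 10.2 CPM with vehicle. The groups did not overlap, and vehicle was the highest. Both ligands lowered it, TGFβ1 by 2.56 (SE 0.23, adjusted p = 6.96e-06; −2.24 with the length offset) and BMP2 by 1.20 (SE 0.19, adjusted p = 0.00273) on the log2 scale, and BMP2 against TGFβ1 was 1.35 (SE 0.23). The principal transcript of Mylk is 7824 nt long, and the locus also encodes shorter transcripts.

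The remaining smooth muscle contractile genes, Tagln, Lmod1, Cnn1 and Myh11, were at or near the detection limit. Tagln (SM22) had 18 and 25 counts with TGFβ1, 2, 4 and 4 with BMP2 and 4 and 8 with vehicle; the log2 fold change of TGFβ1 against vehicle was 1.08 (SE 0.51, adjusted p = 0.091), and BMP2 was lower than TGFβ1 by 2.22 (SE 0.50, adjusted p = 0.0027). Of Tagln's exon bases, 67.9% overlap Pcsk7 or Gm48529 on the opposite strand. Lmod1, a nucleator of smooth muscle actin filaments, had 16 and 19 counts with TGFβ1, 1, 7 and 3 with BMP2 and 4 and 9 with vehicle. It was not called against vehicle for either ligand, and was lower with BMP2 than with TGFβ1 (−1.77, SE 0.63, adjusted p = 0.0317), a call that was lost in DESeq2 and without any one of 4 libraries (both TGFβ1 libraries and BMP2 replicates 1 and 3). Without BMP2 replicate 2 it was −2.79.

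Cnn1 and Myh11, calponin 1 and the smooth muscle myosin heavy chain, had too few counts to be tested. Cnn1 had 12 and 16 counts with TGFβ1, 9, 0 and 6 with BMP2 and 5 and 3 with vehicle. Myh11 had 0 and 0 counts with TGFβ1, 1, 1 and 2 with BMP2 and 1 and 0 with vehicle. Neither passed the filter on low counts, so no fold change is given for them.

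**Figure D3:**
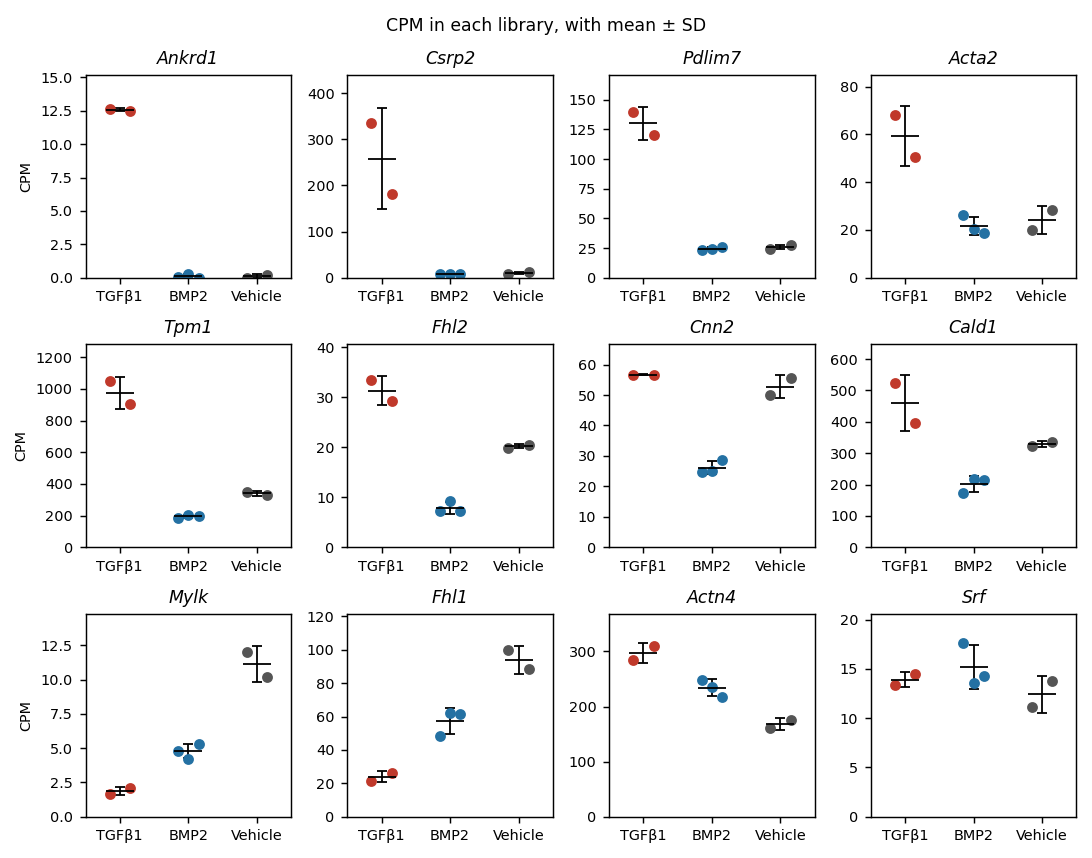
CPM of 12 of the genes in each library (points), with the mean and 1 SD (bars); every y axis starts at 0. Cald1, Fhl2 and Tpm1 are highest with TGFβ1 and lowest with BMP2, whereas Mylk and Fhl1 are highest with vehicle and Srf overlaps between the groups.

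Among the cytoplasmic actins and non-muscle myosin genes, TGFβ1 raised Actb, Myl6 and Myl9 and lowered both heavy chains, Myh9 and Myh10. With BMP2 against vehicle 0 of the 6 were called in edgeR and 0 in DESeq2. Of these, 3 (Myl9, Myh9 and Myh10, all lower) had an unadjusted p under 0.05. Over all genes TGFβ1 raised 30.4% and lowered 25.8%, and BMP2 raised 5.33% and lowered 6.15%. Actb, β-actin, stood at 5426 and 3846 CPM with TGFβ1, 2176, 2782 and 2735 CPM with BMP2 and 2288 and 2243 CPM with vehicle. Both TGFβ1 libraries were above the rest, but they differed from each other more than the libraries of any other group did. Its log2 fold change was 1.03 (SE 0.19, adjusted p = 0.000816; 0.86 with the length offset), with 0.77 when TGFβ1 replicate 1 was left out and 1.27 when replicate 3 was. The difference was 2.05-fold.

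Actg1, the other cytoplasmic actin, had only 13 to 30 counts in any library. Of its 50-base stretches 56.7% occur in transcripts of 22 other genes, and the sources used here do not say how reads with several matches were counted. Its value is therefore uncertain as a measure of the γ-actin transcript, and it was not called in any of the 3 comparisons.

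Myl6, the essential light chain of non-muscle myosin, has the shortest transcript of the members, 665 nt. It stood at 1094 and 1099 CPM with TGFβ1, 75.3, 82.3 and 80.6 CPM with BMP2 and 71.9 and 72.5 CPM with vehicle. The log2 fold change of 3.92 (SE 0.14) was 0.82 (SE 0.14, adjusted p = 0.000648) with the length offset, still called but far smaller; 53.2% of its 50-base stretches occur in transcripts of 5 other genes. Myl9, a regulatory light chain with a transcript of 1128 nt, was likewise higher by 1.72 (SE 0.26, adjusted p = 0.000247), and by 0.37 and not called with the offset (adjusted p = 0.26). Its BMP2 libraries held 14 to 37 counts, against 25 and 44 with vehicle, and the fold change of −0.76 was not called.

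The heavy chains were lower with TGFβ1. Myh10 (non-muscle myosin IIB) stood at 22.1 and 21.7 CPM with TGFβ1, 26.2, 38.6 and 37.9 CPM with BMP2 and 48.4 and 40.3 CPM with vehicle; the groups did not overlap. It fell by 1.02 with TGFβ1 (SE 0.19, adjusted p = 0.00101), and by 0.63 (adjusted p = 0.0127) with the length offset. Myh9 (non-muscle myosin IIA) stood at 116 and 135 CPM with TGFβ1, 123 to 151 CPM with BMP2 and 184 and 175 CPM with vehicle. Its fall with TGFβ1 of 0.52 (SE 0.14, adjusted p = 0.0103) was not called with the offset, where it was −0.33 (adjusted p = 0.0758), nor without TGFβ1 replicate 1 or vehicle replicate 1. Both transcripts exceed 7000 nt, the length class with the lowest median log2 fold change with TGFβ1 (−0.57).

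**Figure D4:**
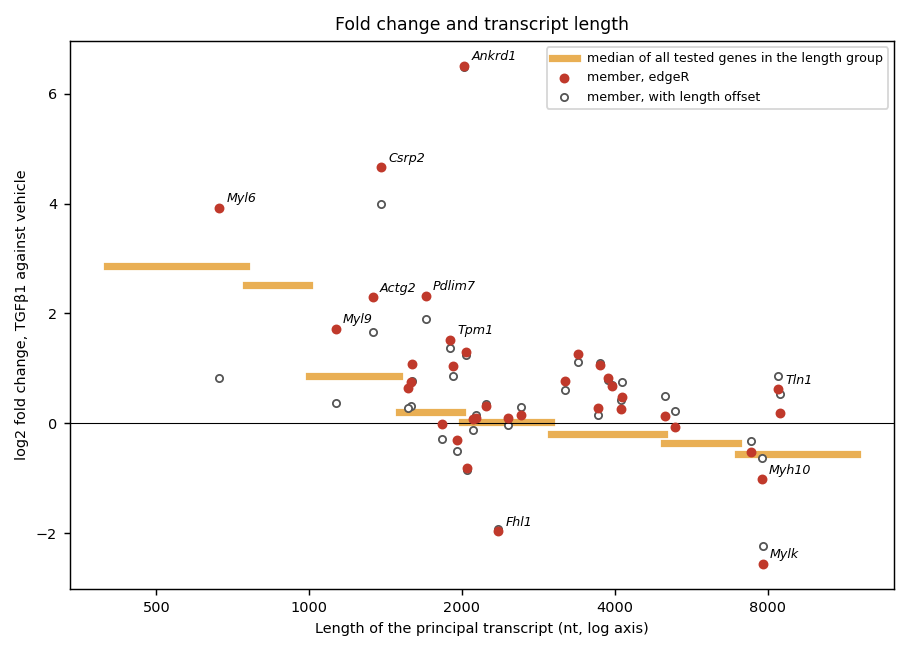
Log2 fold change of TGFβ1 against vehicle (y axis) of the 36 tested genes by length of the principal transcript (x axis, log scale); filled points are the edgeR fit, open points the fit with the length offset, and bars the median of all tested genes in each of 8 length classes. Myl6 falls close to the other genes of its length, while Ankrd1, Csrp2, Mylk and Fhl1 lie far from theirs in both fits.

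The tropomyosins divided by gene rather than moving as a family. Tpm1 stood at 1048 and 905 CPM with TGFβ1, 184, 205 and 195 CPM with BMP2 and 350.5 and 331 CPM with vehicle, with no overlap between the 3 groups. It rose by 1.52 with TGFβ1 (SE 0.13, adjusted p = 5.48e-06; 1.36 with the length offset) and fell by 0.81 with BMP2 (SE 0.12, adjusted p = 0.00182), and BMP2 against TGFβ1 was −2.33 (SE 0.12). Tpm2 was not called with TGFβ1 (0.07, SE 0.13) and fell by 0.87 with BMP2 (SE 0.12, adjusted p = 0.00143), at 28.0 to 33.8 CPM with BMP2 against 51.8 and 59.7 CPM with vehicle.

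Tpm3 and Tpm4, which encode mainly short cytoskeletal tropomyosins, had smaller fold changes with TGFβ1 than Tpm1. Tpm3 was higher with TGFβ1 by 0.31 (SE 0.12, adjusted p = 0.0436), a call lost in DESeq2 and without any one of 6 libraries, and 0.19 without vehicle replicate 1. Of its sequence, 62.4% of the 50-base stretches occur in transcripts of 5 other genes. Tpm4 was not called with TGFβ1 (0.09, SE 0.14) or with BMP2 (0.30, SE 0.13, adjusted p = 0.175). As a share of the CPM per kilobase of the 4 tropomyosins, Tpm1 held 57.2% ± 3.88 with TGFβ1, 20.8% ± 0.639 with BMP2 and 33.6% ± 3.15 with vehicle (SD, n = 2, 3 and 2). Tpm4 held 30.5% ± 3.01, 64.4% ± 1.04 and 48.0% ± 2.43 with TGFβ1, BMP2 and vehicle. The groups did not overlap for either gene, and Tpm1 was the leading tropomyosin with TGFβ1 whereas Tpm4 led with BMP2 and vehicle. These shares used the deposited gene lengths; with principal transcript lengths Tpm1 held 78.1%, 42.3% and 57.9% with TGFβ1, BMP2 and vehicle, the same order of groups but with Tpm1 leading in all 3.

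**Figure D5:**
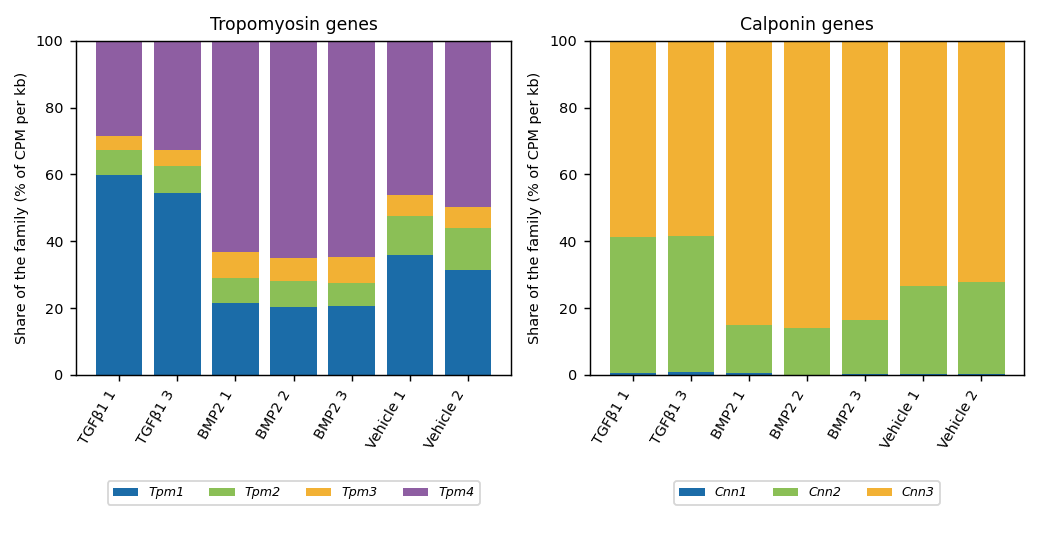
Share of each tropomyosin (left) and calponin (right) in the family's summed CPM per kilobase, in percent, for each library. Tpm1 fills over 50% of the bar in both TGFβ1 libraries and under 25% in the 3 BMP2 libraries, and the share of Cnn2 is largest with TGFβ1 and smallest with BMP2.

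Calponin and transgelin relatives outside smooth muscle showed a like division. Cnn2 (calponin 2) stood at 56.7 and 56.6 CPM with TGFβ1, 24.6, 25.1 and 28.5 CPM with BMP2 and 50.0 and 55.5 CPM with vehicle. It was not called with TGFβ1 (0.10, SE 0.12) and fell by 1.02 with BMP2 (SE 0.12, adjusted p = 0.000335), a ratio of 0.494. Cnn3, the acidic calponin, fell with TGFβ1 instead, by 0.81 (SE 0.12, adjusted p = 0.00018; 0.85 with the length offset), at 101 and 99.6 CPM with TGFβ1, 178 to 187 CPM with BMP2 and 172 and 179.7 CPM with vehicle. Of the summed CPM per kilobase of the 3 calponins, Cnn2 held 40.8% ± 0.062 with TGFβ1, 14.9% ± 0.991 with BMP2 and 27.0% ± 0.869 with vehicle.

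Tagln2 (transgelin 2), an actin-bundling relative of SM22, was called in opposite directions. It stood at 144 and 138 CPM with TGFβ1, 64.3, 52.8 and 55.1 CPM with BMP2 and 83.6 and 84.2 CPM with vehicle, with no overlap. It rose by 0.75 with TGFβ1 (SE 0.13, adjusted p = 0.000612; 0.32 with the length offset, adjusted p = 0.0336) and fell by 0.55 with BMP2 (SE 0.12, adjusted p = 0.0133). The BMP2 call was lost without BMP2 replicate 2 or 3 or without either vehicle library; BMP2 against TGFβ1 gave −1.29 (SE 0.11).

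Of the 8 crosslinkers and focal adhesion genes, TGFβ1 raised 4 and lowered 0 (0 also at an unadjusted p under 0.05 and in DESeq2). BMP2 raised Actn4 and lowered 0 (1 at an unadjusted p under 0.05, 0 in DESeq2). Over all genes TGFβ1 raised 30.4% and lowered 25.8%, and BMP2 raised 5.33% and lowered 6.15%. Actn1, the α-actinin of stress fibres and adhesions, stood at 196 and 227 CPM with TGFβ1, 103 to 119 CPM with BMP2 and 101 and 100.5 CPM with vehicle. It rose by 1.07 with TGFβ1 (SE 0.13, adjusted p = 6.91e-05; 1.09 with the length offset). Actn4, its close relative, was higher with both ligands, at 284 and 309.5 CPM with TGFβ1, 249, 236 and 218 CPM with BMP2 and 161 and 176 CPM with vehicle, with no overlap between the groups. The log2 fold changes were 0.82 (SE 0.13, adjusted p = 0.000387) for TGFβ1 and 0.48 (SE 0.12, adjusted p = 0.0278) for BMP2.

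Zyx and Tln1 also rose with TGFβ1. Zyxin, a mechanosensitive LIM protein of adhesions, was higher by 0.77 (SE 0.13, adjusted p = 0.000549), and talin 1, which links integrins to actin, by 0.62 (SE 0.11, adjusted p = 0.000975). With the length offset these values were 0.61 and 0.87, and the transcript of Tln1, of 8393 nt, lies in the length class with the lowest medians. Tln1 stood at 231 and 230.1 CPM with TGFβ1, 124 to 129 CPM with BMP2 and 149.8 and 150.5 CPM with vehicle; the fall with BMP2 was not called (−0.25, adjusted p = 0.158). Flna, filamin A with a transcript of 8456 nt, was not called with TGFβ1 (0.19, adjusted p = 0.198), but was higher with the length offset (0.53, SE 0.12, adjusted p = 0.00263). Between the ligands, Actn4 and Flna were lower with BMP2 than with TGFβ1 by 0.34 and 0.31, calls that were each lost without any one of 5 libraries (TGFβ1 replicate 3, BMP2 replicates 2 and 3 and both vehicle libraries).

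The other adhesion genes were not called against vehicle for either ligand. Vcl (vinculin) had a log2 fold change of −0.08 (SE 0.20) with TGFβ1 and −0.36 (SE 0.18) with BMP2, Pxn (paxillin) of 0.28 (SE 0.16) and 0.29 (SE 0.15), and Lima1 (EPLIN) of 0.27 (SE 0.17) and −0.25 (SE 0.16). Lima1 was lower with BMP2 than with TGFβ1 by 0.52 (SE 0.15, adjusted p = 0.0128), a call lost without TGFβ1 replicate 1. Vcl differed between the replicates, at 38.9, 26.9 and 28.5 CPM in the BMP2 libraries and 33.8 and 47.3 CPM in the vehicle libraries, and it was called lower with BMP2 (−0.55) without BMP2 replicate 1.

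The LIM and PDZ-LIM genes held the widest range of responses. Csrp2, a muscle LIM protein of vascular smooth muscle and stress fibres (chromosome 10, 110919789 to 110939622, GRCm38), stood at 336 and 181 CPM with TGFβ1, 7.21, 7.29 and 8.28 CPM with BMP2 and 8.02 and 12.3 CPM with vehicle. TGFβ1 was higher by 4.66 (SE 0.31, adjusted p = 5.09e-07), a 25.3-fold difference that was 15.9-fold with the length offset. Without TGFβ1 replicate 1 the log2 value was 4.15, and without replicate 3 it was 5.04. Its relative Csrp1 was at 26.6 to 34.8 CPM in all 7 libraries and was not called against vehicle (−0.01 with TGFβ1 and 0.03 with BMP2).

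Pdlim7 (Enigma), a PDZ-LIM protein that binds tropomyosin, stood at 139.8 and 120.4 CPM with TGFβ1, 23.0, 24.4 and 25.8 CPM with BMP2 and 24.6 and 27.3 CPM with vehicle. It was 5.01 times as high with TGFβ1 (log2 2.33, SE 0.13, adjusted p = 1.95e-07; 1.90 with the length offset), and did not differ by more than the spread with BMP2 (−0.09, SE 0.13). Pdlim5 (ENH) was not called against vehicle in the fit without offset, and with it was higher with TGFβ1 (0.49, SE 0.14, adjusted p = 0.0105); its transcript is 5016 nt long.

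Fhl1 and Fhl2, which encode proteins built of LIM domains, moved apart with TGFβ1 and together with BMP2. Fhl1 stood at 21.7 and 26.3 CPM with TGFβ1, 48.2, 62.1 and 61.6 CPM with BMP2 and 99.9 and 88.2 CPM with vehicle, with no overlap. It fell by 1.97 with TGFβ1 (SE 0.16, adjusted p = 3.3e-06; 1.92 with the length offset) and by 0.72 with BMP2 (SE 0.14, adjusted p = 0.0087; not called without vehicle replicate 1). Fhl2, a transcriptional cofactor that binds SRF, stood at 33.3 and 29.3 CPM with TGFβ1, 7.21, 9.28 and 7.24 CPM with BMP2 and 19.9 and 20.5 CPM with vehicle. It had the largest fall of the members with BMP2, by 1.37 (SE 0.15, adjusted p = 0.000313). Its rise with TGFβ1 of 0.63 (SE 0.15, adjusted p = 0.00469) was 0.29 and not called with the length offset (adjusted p = 0.116), while BMP2 was lower than TGFβ1 in both fits (by 2.0, and by 1.63 with the offset).

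Ankrd1 (CARP), a stretch-responsive nuclear and sarcomeric protein that YAP and TEAD are known to control, had the largest fold change of the members. Its counts were 172 and 164 with TGFβ1, 1, 2 and 0 with BMP2 and 0 and 2 with vehicle, or 12.7 and 12.5 CPM in the TGFβ1 libraries. The ratio of TGFβ1 to vehicle was 99.7, with a 95% counting interval from 27.4 to 826, and that of BMP2 to TGFβ1 was 0.00799 (0.00164 to 0.0236); intervals cover counting error only. The fitted log2 fold change of 6.51 (SE 0.54, adjusted p = 3.47e-06) rests on 2 vehicle counts, both in replicate 2, and was 10.1 without that library.

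Srf itself was not called in any of the 3 comparisons. It stood at 13.4 and 14.4 CPM with TGFβ1, 17.7, 13.5 and 14.3 CPM with BMP2 and 11.1 and 13.8 CPM with vehicle. The log2 fold change was 0.16 (SE 0.18, adjusted p = 0.478) for TGFβ1 and 0.29 (SE 0.17, adjusted p = 0.321) for BMP2, and the groups overlapped. Its cofactors Mrtfa and Mrtfb, listed as Mkl1 and Mkl2, were not called either: Mkl1 averaged 11.5 ± 0.938 CPM with TGFβ1, 10.8 ± 2.10 with BMP2 and 12.2 ± 1.00 with vehicle, and Mkl2 averaged 20.4 ± 0.272, 23.3 ± 2.40 and 22.3 ± 1.82 CPM with TGFβ1, BMP2 and vehicle. With the length offset Mkl2 was higher with TGFβ1 (0.37, adjusted p = 0.0483). Myocd, the smooth muscle and heart cofactor of SRF, had 2 to 7 counts in each library.

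Between genes, levels were compared per kilobase of the deposited gene length. With TGFβ1 the order was Actb (1731 ± 417), Myl6 (344 ± 1.05), Tpm1 (151 ± 15.6), Csrp2 (119 ± 50.2) and Tpm4 (80.1 ± 5.04 CPM per kilobase), where Myl6 carries the length trend of those libraries. With BMP2 it was Actb (957 ± 126), Tpm4 (93.0 ± 8.85), Cnn3 (60.2 ± 1.63) and Actn4 (38.3 ± 2.55). In vehicle libraries Actb led with 846 ± 11.7, followed by Tpm4 (75.4 ± 7.77), Cnn3 (57.9 ± 1.79), Tpm1 (52.5 ± 2.17), Tagln2 (40.3 ± 0.215) and then Actn4, Cald1 and Fhl1 at 25.3 to 27.5 CPM per kilobase, which overlapped within their spread. Below Actb this order depends on the length used. Per kilobase of the principal transcript Actb was followed by Myl6 (1648), Tpm1 (514.5), Csrp2 (187) and Cald1 (111) with TGFβ1, by Myl6 (119), Tpm1 (103), Tpm4 (96.3) and Cnn3 (89.2) with BMP2, and by Tpm1 (179), Myl6 (109), Cnn3 (85.8), Cald1 (79.7) and Tpm4 (78.0) with vehicle. Acta2 was at 33.3 ± 7.01 CPM per kilobase with TGFβ1, 12.2 ± 2.16 with BMP2 and 13.6 ± 3.24 with vehicle, and Actb held 97.9% of the 4 actins as counted with TGFβ1, 98.6% with BMP2 and 98.3% with vehicle. These shares include Actg1 at its low and uncertain count, so they do not give the share of the γ-actin transcript.

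Windows of the genome around transcription starts were searched for letters that match the sites of SRF and TEAD. RefSeq windows from 250 bases before to 50 bases after a start (GRCm38.p6) were matched by symbol for 32 of the 38 genes, 39 windows in all; 6 genes (Actb, Actg2, Csrp2, Myh11, Pxn and Tagln) are named only. A CArG box was taken strictly as CC, then 6 letters that are each A or T, then GG, read the same on both strands. Boxes that depart from this pattern were not counted. A strict box lay in 10 of the 39 windows (25.6%), against 535 of 32851 windows of all genes (1.63%). The members were chosen as actin, contractile and SRF target genes, so this higher share may reflect that choice. The 9 genes with one were Actg1, Cnn2, Fhl1, Fhl2, Lima1, Myl6, Myl9, Srf and Vcl. Of these 9, TGFβ1 raised 3 (Fhl2, Myl6 and Myl9) and lowered 1, beside 30.4% and 25.8% over all genes. With the length offset Myl9 and Fhl2 were no longer called with TGFβ1. BMP2 raised 0 and lowered 3 (Fhl1, Fhl2 and Cnn2), beside 5.33% and 6.15% over all genes. The boxes of Srf, of the genes lowered by BMP2 and of the light chains are shown with the box in capitals, 5′ to 3′ on the gene's strand. For Srf, on chr17:46556195-46556264 (minus strand), the boxes begin 82 and 62 bases before the start. Fhl2 has a box in each of 2 windows, on chr1:43196828-43196877 and chr1:43163963-43164012 (minus strand), 96 and 31 bases before its starts. The others lie on chr10:79988524-79988573 (Cnn2, plus), chrX:56779561-56779610 (Fhl1, plus), chr2:156775283-156775332 (Myl9, plus) and chr10:128493030-128493079 (Myl6, minus).
Srf: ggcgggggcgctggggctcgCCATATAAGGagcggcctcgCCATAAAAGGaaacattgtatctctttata
Fhl2 (first window): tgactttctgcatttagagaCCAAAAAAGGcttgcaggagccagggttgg
Fhl2 (other window): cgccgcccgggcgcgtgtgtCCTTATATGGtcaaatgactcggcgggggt
Cnn2: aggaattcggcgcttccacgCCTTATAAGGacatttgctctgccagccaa
Fhl1: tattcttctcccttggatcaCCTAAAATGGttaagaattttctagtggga
Myl9: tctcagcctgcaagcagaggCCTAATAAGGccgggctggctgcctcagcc
Myl6: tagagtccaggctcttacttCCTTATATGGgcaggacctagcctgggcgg

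The letters GGAATG or, on the other strand, CATTCC, the core bound by TEAD factors, lay in 12 of the 39 windows (30.8%), against 14.7% of all windows, in 12 genes. Of these 12, TGFβ1 raised 7 (Acta2, Actn4, Ankrd1, Cald1, Smtn, Tagln2 and Tpm1) and lowered 2 (Mylk and Myh10). Flna, Lmod1 and Vcl were not called with TGFβ1 in the fit without the offset. BMP2 raised 1 and lowered 4. Over all genes the shares were 30.4% and 25.8% with TGFβ1 and 5.33% and 6.15% with BMP2. Of all 36 tested members TGFβ1 raised 18 and lowered 5, and BMP2 raised 1 and lowered 8. Whether members with and without the motif differ was not tested. Only Vcl held both motifs, which do not overlap there. Those of Ankrd1, Acta2 and Tpm1, 3 of the genes that TGFβ1 raised, are shown with the motif in capitals: Ankrd1 on chr19:36119942-36120074 with 2 copies 210 and 123 bases before the start, Acta2 on chr19:34255494-34255539 with 1 copy 146 bases before it, and Tpm1 on chr9:67049244-67049289 with 1 copy 56 bases before it, all on the minus strand. A match describes the letters in the window and is not a measured binding site. A window without a match says nothing of more distant sites, or of sites in it that depart from these patterns.
Ankrd1: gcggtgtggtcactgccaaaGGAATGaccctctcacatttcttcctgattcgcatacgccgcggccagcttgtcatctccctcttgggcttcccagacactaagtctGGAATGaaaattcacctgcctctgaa
Acta2: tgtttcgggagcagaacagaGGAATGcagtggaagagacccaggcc
Tpm1: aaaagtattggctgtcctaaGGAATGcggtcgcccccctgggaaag

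Other genes of the pathway were measured from lists. Log2 fold changes with TGFβ1 against vehicle were called for the actin monomer binders Tmsb10 (5.10, and 1.88 with the offset) and Tmsb4x (2.63, and −0.14 with the offset, not called), the SRF partner Elk3 (1.99, and 2.21 with the offset) and the cofilin phosphatase gene Ssh2 (−1.89, and −1.33 with the offset). Elk3 stood at 76.4 ± 1.28 CPM with TGFβ1, 21.8 ± 0.889 with BMP2 and 19.3 ± 0.00138 with vehicle. With BMP2 against vehicle Rnd3, a small GTPase, was higher (0.73, SE 0.13), and Ssh1 (−0.69), Tmsb4x (−1.06) and Ssh2 (−0.48) were lower.

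Of 21 tested further SRF target genes, TGFβ1 raised 8 and lowered 3 (9 and 3 with the offset), and BMP2 raised 3 and lowered 5. The shares over all genes were 30.4% and 25.8% with TGFβ1 (25.3% and 23.6% with the offset) and 5.33% and 6.15% with BMP2. Junb, an immediate early gene, was higher with both ligands, by 2.63 with TGFβ1 and 2.43 with BMP2, at 35.5 ± 3.05, 30.9 ± 1.51 and 5.76 ± 1.88 CPM with TGFβ1, BMP2 and vehicle. Thbs1 was lower with both, by 0.84 with TGFβ1 and 1.24 with BMP2 on the log2 scale. The matricellular genes Ccn1 and Ccn2, listed as Cyr61 and Ctgf, divided: with BMP2 Cyr61 rose by 1.09 and Ctgf fell by 0.96, and between the ligands Ctgf was lower with BMP2 than with TGFβ1 by 1.69 (SE 0.16, adjusted p = 7.92e-06). Cav1 was higher with BMP2 (1.34, SE 0.11) and with TGFβ1 was not called without the offset (0.25, adjusted p = 0.0942) and higher with it (0.36, adjusted p = 0.0226), and higher with BMP2 than with TGFβ1 (1.09).

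Of 29 tested further actin assembly and adhesion genes, TGFβ1 raised 9 and lowered 10, beside 30.4% and 25.8% of all genes. With the offset it raised 6 and lowered 13, beside 25.3% and 23.6% of all genes. BMP2 raised 2 and lowered 8, beside 5.33% and 6.15%. Tln2 rose by 1.59 with TGFβ1, beside the rise of Tln1. Tns3, a tensin of adhesions, fell by 2.07 with TGFβ1 and by 0.74 with BMP2, at 56.9 ± 1.47, 143 ± 3.73 and 239 ± 13.3 CPM with TGFβ1, BMP2 and vehicle. Tns1, Pdlim2 and Tns2 also fell with BMP2, by 1.26, 1.57 and 0.68. Arpc3, of the branching complex Arp2/3, was higher with TGFβ1 by 2.92, and by 0.55 with the offset; its transcript is among the short ones.

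Markers of other cell types that express contractile genes were measured beside the members. Of 10 smooth muscle and pericyte markers, 5 were tested and TGFβ1 raised 3 (Cspg4, Pdgfrb and Mcam), beside 30.4% of all genes. The 10 markers summed to 419 and 453 CPM with TGFβ1, 329 to 376 CPM with BMP2 and 252 and 271 CPM with vehicle. Nearly all of this was Cspg4 and Pdgfrb. From the same list, Des, Rgs5, Kcnj8, Abcc9 and Myocd had at most 7 counts in any library. Of 10 skeletal muscle markers 4 were tested and TGFβ1 raised 3, but 1 (Tnni2) with the length offset. The shares over all genes were 30.4%, and 25.3% with the offset. The 10 summed to 80.2 and 60.2 CPM with TGFβ1, 12.3 to 17.5 CPM with BMP2 and 11.6 and 21.5 CPM with vehicle. Myod1 was at 0 counts in all 7 libraries. Of 5 cardiac markers only Tnnt2 was tested, at 2.40 ± 0.0631 CPM with TGFβ1, 0.151 ± 0.136 with BMP2 and 0.127 ± 0.00998 with vehicle, and the 5 summed to at most 2.60 CPM in a library.

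Of 7 tested fibroblast markers, TGFβ1 raised 4 (Col1a1 by 1.15, Col3a1 by 1.35, Lum by 1.06 and S100a4 by 1.92) and Dcn, Fap and Pdgfra were not called. With the offset 3 were higher and S100a4 was lower (−1.10). Over all genes TGFβ1 raised 30.4% (25.3% with the offset) and lowered 25.8% (23.6% with the offset), and BMP2 raised 5.33% and lowered 6.15%. BMP2 raised S100a4 and lowered Dcn and Fap; the summed level of all 9 listed markers was 3752 and 3962 CPM with TGFβ1, 1527 to 1725 CPM with BMP2 and 2601 and 2652 CPM with vehicle. Most of the lower sum with BMP2 was Dcn, which averaged 1468 CPM with TGFβ1, 609 with BMP2 and 1553 with vehicle. Chondrocyte markers summed to 34490 and 40420 CPM with TGFβ1, 47370 to 53460 CPM with BMP2 and 54890 and 54910 CPM with vehicle. Leukocyte markers summed to at most 28.5 CPM and endothelial markers to at most 1.99 CPM in a library, with Cd3e and Cdh5 at 0 counts in all. The part of these markers' cells in the members' differences was not tested.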

How the data were processed

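The authors deposited 1 table of whole-number read counts per gene name for the 7 libraries, with a gene length column that was used here only to compare levels between genes. The submitters' processing notes name STAR 2.4.2a, featureCounts, Subread, cutadapt, DESeq2 and the mm10 build, without roles or order. The sources used here do not give the strand setting or the handling of reads with several matches. From the deposited counts, edgeR 4.0.16 in R 4.3.3 was run over all 7 libraries: filterByExpr by group, TMM scaling, a quasi-likelihood fit with 1 term for each group (4 residual degrees of freedom), 2-sided tests and Benjamini-Hochberg adjustment over 13367 genes with a threshold of 0.05. SE is the standard error of the fitted log2 fold change. Total counts per library were 6747997 to 18047765, and genes with few counts are given as counts, for Ankrd1 also as ratios with exact 95% intervals, which cover counting error only.

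For the length offset, log2 CPM of each library (prior count 1) was smoothed by lowess first on principal transcript length (span 0.15), next on GC content (span 0.3), 3 times over; 98.98% of tested genes had a length. Both fits and DESeq2 were run on simulated data with known changes, with recovery rates not given here. DESeq2 was run without a simulated length trend, the offset fit with one, and the fit without offset both ways. That trend was a straight line on log2 length without a GC trend, so it was simpler than that of these libraries. Gene names were matched to the GENCODE annotation of GRCm38 (mm10), and start windows are from RefSeq (GRCm38.p6). Alternatives were DESeq2 1.42.0, DESeq2 size factors, no filter on low counts, only the 2 groups compared, a replicate block, the length offset, and leaving out each library, without and, for TGFβ1, with the offset.

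The members, lists and alternatives were chosen with earlier results of these data known. All 38 members are accounted for. Of the other lists, at most the 4 genes with the smallest p in each comparison are named (1 gene and the counts of 1 list are not reported here), with the SRF cofactors and the marker genes whose level stands beside a result. No 2 libraries of a group agreed within counting error (chi-square per gene 1.88 to 42.9).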

Additional observations from a re-analysis of the deposited data

How the results depend on the processing

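No member's fold change that was called reversed its sign under any alternative run. With TGFβ1 against vehicle the count of higher members was 16 to 18 and that of lower members 4 to 5 under all alternatives; leaving out 1 library in turn gave 16 to 18 higher and 4 to 5 lower. With BMP2 against TGFβ1 leaving out 1 library gave 4 to 5 higher and 19 to 22 lower, and the other alternatives 3 to 4 higher and 20 to 23 lower. With BMP2 against vehicle the single higher member (Actn4) gave counts of 0 to 1, and the lower members counts of 5 to 9, when 1 library was left out. The 5 was without vehicle replicate 1, where Cald1, Tagln2 and Fhl1 lost their call; DESeq2, DESeq2 size factors, no filter, the 2 groups alone and the length offset each gave 1 and 8. The cause of these losses was not tested beyond the smaller number of libraries.

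The replicate numbers are shared between groups. The deviations of libraries with the same number from their group means correlated at −0.139 to −0.000945. In a group of 2 libraries the deviations mirror each other, so these values cannot decide whether the numbers pair the samples. With the replicate number as a block, 2 residual degrees of freedom remain; 16 members were higher and 5 lower with TGFβ1, 0 higher and 6 lower with BMP2 against vehicle, and 4 higher and 21 lower with BMP2 against TGFβ1. Over all genes the block left 354 higher and 417 lower with BMP2 against vehicle, where the fit without it called 713 and 822. Without vehicle replicate 1 these were 276 and 395, without vehicle replicate 2 they were 245 and 312, and without the filter on low counts 1003 and 1009.

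The length offset ended the TGFβ1 calls of Myl9, Myh9 and Fhl2 and added those of Flna and Pdlim5, and it left Ankrd1, Csrp2, Pdlim7, Acta2, Tpm1, Mylk and Fhl1 called in the same direction. Low counts limit Cnn1, Myh11, Tagln, Lmod1 and Actg1, at 0 to 30 counts per library. Of Actg1's 50-base stretches 56.7% occur in transcripts of other genes. Of Tagln's exon bases 67.9% overlap genes on the opposite strand. Whether depth or the handling of such reads set the counts of Actg1 and Tagln was not tested.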

Other observations

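The TGFβ1 libraries differed from each other in several of these genes, with replicate 1 the higher. Csrp2 stood at 336 CPM in replicate 1 and 181 CPM in replicate 3, Actg2 at 6.03 and 3.97 CPM, Actb at 5426 and 3846 CPM, Acta2 at 68.1 and 50.4 CPM and Cald1 at 522 and 398 CPM. Of the adhesion and crosslinking genes, Actn1 (196 and 227 CPM), Actn4 (284 and 309.5 CPM), Flna (206 and 229 CPM) and Zyx (79.3 and 89.7 CPM) were the other way, with replicate 3 the higher. The chi-square per gene between these 2 libraries was 42.9, the largest of the within-group pairs, at the greatest depth.

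Paralogue shares shifted also in the pairs of α-actinins and non-muscle myosin heavy chains. Per kilobase of deposited gene length, Actn1 held 44.0% ± 1.09 of the summed Actn1 and Actn4 with TGFβ1, 33.9% ± 1.05 with BMP2 and 40.0% ± 1.71 with vehicle (SD, n = 2, 3 and 2), with no overlap between the groups. Myh9 held 82.2% ± 1.76 of the summed Myh9 and Myh10 with TGFβ1, 77.1% ± 1.82 with BMP2 and 76.7% ± 1.70 with vehicle, where the BMP2 and vehicle libraries overlapped and both TGFβ1 libraries were above them. These shares were not tested.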
